A study of Mus musculus with 16 samples.

Results

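A set of 48 genes, read by 50 probes, was lower in the tibialis anterior of mice 4 h after formoterol administration than in saline mice of the same time, and was not lower than saline at 1 h by more than the limit of the rule that chose it. The genes were selected on their measured values among 2584 kept probes that could be named by a gene number (2386 genes), out of 7596 kept probes and 46120 probes on the array. A probe was kept where its detection score, which measures signal above the negative controls, was 1 on at least 4 of the 16 arrays. From log2 of the ratio deposited for each array (signal over the median of the kept probes), the difference between the formoterol and saline means was taken at 1 h and at 4 h. A gene entered the set when the difference at 4 h was at or under -0.3, all 4 formoterol mice at 4 h lay under all 4 saline mice, and the difference at 1 h was above -0.15. Histone genes, solute carriers and 10 genes given by name were left out; 7 named probes that met the values were set aside in this way (Prnd, Emcn, Pdgfa, Ppargc1b, Bmpr1a, Acvr1 and Igfbp4). The differences at 1 h and 4 h and the lack of overlap at 4 h therefore chose the genes, and they are given here as a description, with no test.

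The mice were male C57BL/10 ScSn, wild type, 6 to 7 weeks old, and each received 1 intraperitoneal injection of formoterol at 100 µg/kg in 0.2 mL of saline, or of saline alone. Muscle was taken 1 h or 4 h later, which gave 4 groups of 4 mice, and the saline mice of each time are the controls for the formoterol mice of that time. Each mouse gave 1 array of whole-muscle RNA, so fewer cells of a type and less RNA per cell cannot be told apart. The median array signal was 2.33 to 3.74 times background, with the highest and the lowest of the 16 arrays both in the saline 4 h group (replicate 2 and replicate 4). The arrays lay on 3 slides: slide 1 held 3 saline and 3 formoterol mice of 4 h, slide 2 held mice of both times, and slide 3 held mice of 1 h only. Of the muscle fibre markers, 4 genes were measured (Myh1, Ryr1, Actn3 and Eno3), and their summed ratio was 110 to 142 in every group.

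Formoterol is a β2-adrenoceptor agonist. The receptor couples to the stimulatory G protein, which raises cyclic AMP, and cyclic AMP activates protein kinase A, which phosphorylates transcription factors of the CREB family at cyclic AMP response elements (CREs) in gene promoters. In skeletal muscle this route is known for the fast induction of immediate early genes and, on long treatment, for fibre growth. The 48 genes include regulators of the actin cytoskeleton, surface receptors, matrix collagens, transcription and chromatin factors and RNA-binding proteins.

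The promoters of the genes were read because the genes were lower together. RefSeq promoters of build GRCm38.p6, each running from 250 bases before to 50 bases after the start, were found for 40 of the 48 genes; 14 of these have more than 1 start, and the one listed first was used. A set of 4 is shown for comparison with the CRE: Atp1b4, which had the lowest difference at 4 h, Ets2 and Tmcc3, which carry its core TGACG on 1 strand, and Birc2, the only promoter of the set with the whole palindrome TGACGTCA. Capitals mark TGACG or its reverse complement CGTCA.
Atp1b4, chrX:38315872-38316171, plus strand: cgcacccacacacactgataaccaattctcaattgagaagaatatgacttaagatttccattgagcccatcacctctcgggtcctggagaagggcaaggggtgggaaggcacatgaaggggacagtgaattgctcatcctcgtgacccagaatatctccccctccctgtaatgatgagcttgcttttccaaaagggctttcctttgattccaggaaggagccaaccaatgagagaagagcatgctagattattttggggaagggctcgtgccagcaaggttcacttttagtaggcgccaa
Ets2, chr16:95702157-95702456, plus strand: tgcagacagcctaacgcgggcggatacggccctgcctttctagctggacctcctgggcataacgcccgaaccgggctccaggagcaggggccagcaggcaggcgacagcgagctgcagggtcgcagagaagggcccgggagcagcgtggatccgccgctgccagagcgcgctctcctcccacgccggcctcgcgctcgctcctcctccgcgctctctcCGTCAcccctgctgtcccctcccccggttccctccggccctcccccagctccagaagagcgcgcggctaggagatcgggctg
Tmcc3, chr10:94311699-94311998, plus strand: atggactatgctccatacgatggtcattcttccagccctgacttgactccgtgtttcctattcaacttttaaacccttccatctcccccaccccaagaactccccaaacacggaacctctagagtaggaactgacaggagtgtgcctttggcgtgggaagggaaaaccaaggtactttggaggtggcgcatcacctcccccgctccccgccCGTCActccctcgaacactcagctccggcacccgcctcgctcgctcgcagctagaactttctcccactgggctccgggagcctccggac
Birc2, chr9:7837008-7837307, minus strand: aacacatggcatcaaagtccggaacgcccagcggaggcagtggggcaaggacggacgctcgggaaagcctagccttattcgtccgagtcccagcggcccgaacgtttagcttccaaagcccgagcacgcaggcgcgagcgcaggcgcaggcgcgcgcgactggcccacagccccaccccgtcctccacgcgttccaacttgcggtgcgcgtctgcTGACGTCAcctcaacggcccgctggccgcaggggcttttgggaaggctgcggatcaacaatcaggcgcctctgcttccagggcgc
In Birc2 the capitals are 2 overlapping cores, 1 on each strand, that together spell the palindrome.

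The CRE core was found, on either strand, in 9 of the 40 promoters (22.5%), against 35.3% of the promoters of all kept named genes and 21.02% of all promoters in the table. The 9 were those of Atxn2, Birc2, Ets2, H2-K1, Nck2, Rpa3, St8sia4, Tmcc3 and Zc3h6. The whole palindrome TGACGTCA was found in 1 (Birc2), or 2.5%, against 3.82% of kept named genes and 1.88% of all promoters. The AP-1 site of Fos and Jun dimers (TGANTCA) was found in 1 (Col6a1), which is 2.5%, against 5.52% of kept named genes. The GC box of Sp1 family factors (GGGCGG) was found in 28, or 70%, against 66.6%, and the CCAAT box (CCAAT) in 17, or 42.5%, against 38.4%. The ETS core (CCGGAA) was found in 11, or 27.5%, against 30.6%, the E-box of myogenic bHLH factors (CAGCTG) in 5, or 12.5%, against 13.8%, and the TATA box (TATAAA) in 4, or 10%, against 8.25%. The FoxO site (GTAAACA) was found in 2, or 5%, against 2.17% of kept named genes. The RBPJ site of Notch signalling (GTGGGAA) was found in 2, or 5%, against 5.42%, and the nuclear receptor core (AGGTCA) in 7, or 17.5%, against 11.6%. A loose CArG-type pattern, which allowed any base at its inner positions, was in 35, or 87.5%, against 87.2%. It was also in 72.98% of all promoters in the table. With the inner bases left open, the pattern cannot tell serum response factor sites from other sequence, and nothing is concluded about that factor. Median GC content was 62.8% for the set and 61% for kept named genes, with a median of 21.5 and 22 CpG dinucleotides per promoter. These are matches of letters within 300 bases and are described without a test.

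Across the 50 probes the difference at 4 h ran from -0.89 to -0.30 on the log2 scale, with a median of -0.39, which is a 1.23- to 1.86-fold lower level; the median over all kept probes was 0.02. Formoterol mice lay under saline mice at 4 h with no overlap for 670 of all 7596 kept probes, 8.82%, and for all 50 by selection. The difference at 1 h had a median of -0.03 and was below 0 for 31 probes and above 0 for 19, so that the name "lower at 4 h only" holds within the limit of -0.15 and not as an absence of difference at 1 h. Without the conditions on names, 168 kept probes met the values of the rule, and 62 named probes passed both limits but overlapped at 4 h.

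**Figure D1:**
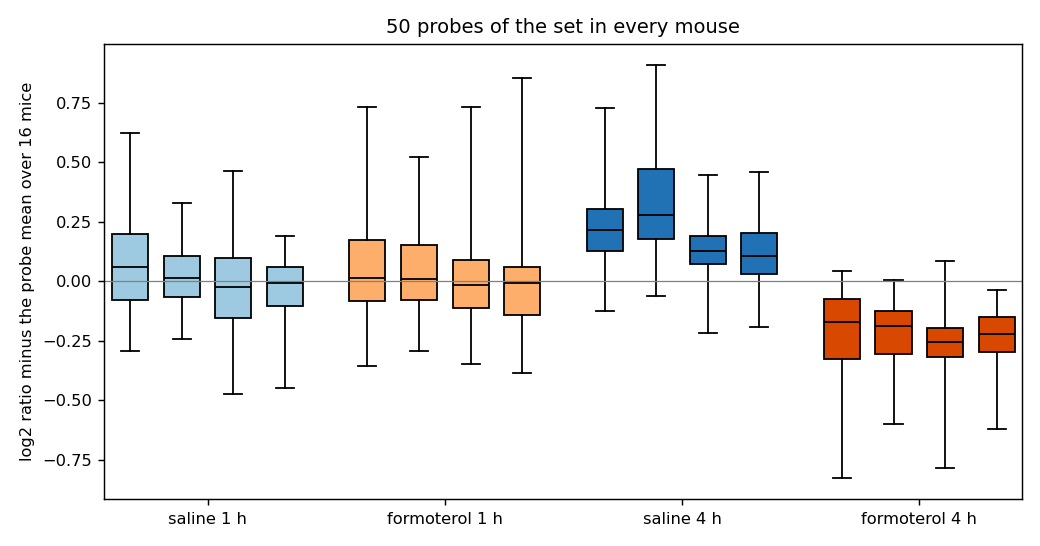
Distribution over the 50 probes of the log2 ratio minus each probe's mean over the 16 mice, 1 box per mouse, in the order of the replicate numbers within each group; boxes span the quartiles, the line is the median and whiskers reach the lowest and highest probe. The medians lie between -0.02 and 0.06 in the 8 mice at 1 h, between 0.11 and 0.28 in the saline mice at 4 h and between -0.25 and -0.17 in the formoterol mice at 4 h.

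The shift had 2 sides. The saline mean was higher at 4 h than at 1 h for 48 of the 50 probes, with a median difference of 0.19, and the formoterol mean was lower at 4 h than at 1 h for 46, with a median of -0.21; over all kept probes those medians were -0.02 and 0.00. The formoterol side was the larger for 29 probes and the saline side for 21. Both differences use the arrays that chose the genes, so their signs are part of the selection. The exceptions on the saline side were Rhobtb3 and Arid1a, at -0.19 and -0.01. The exceptions on the formoterol side were Pls3, Ankrd17, Smu1 and St8sia4, at 0.09, 0.08, 0.07 and 0.03.

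**Figure D2:**
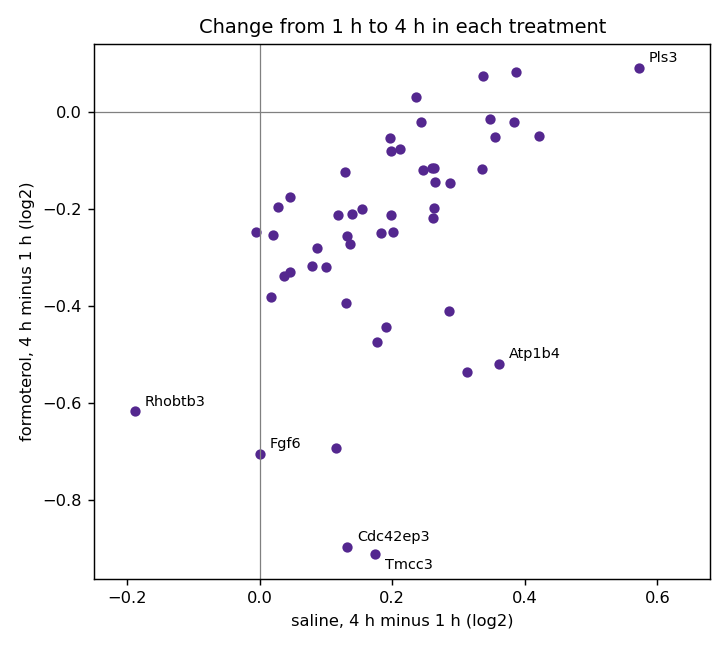
Difference between the 4 h and 1 h group means (log2) in saline mice on the horizontal axis and in formoterol mice on the vertical axis, 1 point per probe, with 6 genes named. Most points lie right of 0 and under 0, Pls3 has the highest saline value (0.57), and Tmcc3 and Cdc42ep3 the lowest formoterol values (-0.91 and -0.90).

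Members of the set were mostly of low to middling signal. The median ratio over the set was 0.896, and 31 of the 50 probes averaged under the array median. All 50 had a detection score of 1 in at least 1 saline mouse at each time, but 11 had it in no formoterol mouse at 4 h (Atp1b4, Mest, Uhrf1, Rgs10, Maml2, Plekhg2, Fgf6, Itga11, Neo1, Col8a1 and Zc3h6). Only through the saline 4 h arrays were 7 kept (Mest, Uhrf1, Rgs10, Plekhg2, Birc2, Col8a1 and Zc3h6). These 7 thus passed the filter through the group where they are high, which bears on their differences at 4 h wherever given. Uhrf1, Rgs10, Fgf6 and Itga11 reached a score of 0.99 in no formoterol mouse at 4 h, so for them the fold is a bound, against the lowest signal detected on each array: at least 1.29-fold for Uhrf1, 1.22-fold for Rgs10, 1.06-fold for Fgf6 and 1.21-fold for Itga11.

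The gene with the lowest difference was Atp1b4, an X-linked gene of muscle whose product, in placental mammals, sits in the inner nuclear membrane and not in the sodium pump to whose β-subunits it is related. Its ratio was 0.868, 0.93, 0.734 and 0.597 in the saline mice at 1 h and 0.838, 0.732, 0.714 and 0.779 in the formoterol mice at 1 h. At 4 h it was 0.988, 1.41, 0.798 and 0.869 in saline mice and 0.545, 0.546, 0.546 and 0.499 in formoterol mice, a difference of -0.89 or 1.86-fold. The 4 formoterol mice at 4 h lay close together and under all 12 other mice, while the saline mice at 4 h were spread, with replicate 2 the highest. None of those formoterol mice had a detection score of 1 for Atp1b4, and only 1 reached 0.99. Their closeness and the fold therefore rest on signal near the limit of detection. Without saline replicate 2 the difference was -0.72.

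Genes that act on actin were among the lowest; they were grouped after the values were seen. Cdc42ep3 encodes an effector that binds active Cdc42 and organises septins and actin. It read 1.21, 1.09, 1.44 and 1.16 in saline mice at 1 h, 1.32, 1.48, 1.56 and 1.49 in formoterol mice at 1 h, 1.26, 1.66, 1.32 and 1.15 in saline mice at 4 h and 0.658, 0.773, 0.677 and 1.1 in formoterol mice at 4 h. Formoterol mice were thus slightly above saline at 1 h, by 0.26 with overlap, and lower at 4 h by 1.7-fold, with replicate 4 just under the lowest saline mouse. Pls3, plastin 3, an actin-bundling protein, read 1.35, 1.1, 1.16 and 1.1 and 1.21, 1.03, 1.02 and 1.06 in saline and formoterol mice at 1 h, and 1.91, 2.17, 1.59 and 1.42 and 1.26, 1.27, 1.06 and 1.02 at 4 h. For Pls3 it was the saline group that moved, while formoterol mice at 4 h lay within the range of the 1 h mice or at its lower edge.

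Rcsd1 encodes a protein that binds the actin capping protein CapZ. Its ratio was 3.42, 3.33, 3.26 and 3.49 and 2.75, 3.32, 3.54 and 2.84 in saline and formoterol mice at 1 h, and 3.54, 3.36, 4.03 and 3.35 and 2.83, 2.22, 2.49 and 2.44 at 4 h, a 1.43-fold lower mean. Ppp1r14b, an inhibitor of the phosphatase that acts on myosin light chain, was 1.42, 1.15, 1.27 and 1.21 and 1.23, 1.09, 1.03 and 1.23 at 1 h, and 1.36, 1.44, 1.39 and 1.41 in saline against 1.17, 0.905, 0.834 and 1.1 in formoterol mice at 4 h. The saline mice at 4 h were tight for Ppp1r14b and the formoterol mice were not. The adaptor Nck2 (-0.47), the guanine nucleotide exchange factor Plekhg2 (-0.38), the Cdc42 effector Cdc42ep2 (-0.33) and Rhobtb3 (-0.33) were also lower in formoterol mice at 4 h, on the log2 scale.

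Nrp1 encodes neuropilin 1, the coreceptor for class 3 semaphorins and for vascular endothelial growth factor, and 2 probes of it were in the set. The brighter read 2.92, 2.5, 3.16 and 3.01 in saline and 3.6, 3.53, 2.97 and 3.01 in formoterol mice at 1 h, then 3.86, 3.62, 4.02 and 2.94 and 2.63, 2.1, 2.15 and 2.15 at 4 h. The other read 2.38, 1.93, 2.32 and 1.96 and 2.33, 2.17, 1.89 and 1.99 at 1 h, then 2.58, 2.48, 2.59 and 2.06 and 1.76, 1.32, 1.43 and 1.54 at 4 h. Both probes gave nearly the same difference at 4 h, -0.67 and -0.68, while at 1 h they differed in sign, 0.18 and -0.03. Neo1, the receptor neogenin (-0.32), and Aoc3, vascular adhesion protein 1 (-0.34), are other surface proteins of the set.

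Ets2 encodes a transcription factor of the ETS family that acts downstream of Ras. It read 2.83, 2.83, 2.84 and 2.31 in saline and 2.82, 2.33, 2.3 and 2.48 in formoterol mice at 1 h, and 4.09, 3.4, 2.82 and 2.26 and 2.08, 1.8, 1.54 and 1.92 at 4 h, 1.68-fold lower. The saline mice at 4 h were spread over a wide range for Ets2, and replicate 4, on slide 2, was the lowest of them and close to the highest formoterol mouse. Tcf4, an E protein of the bHLH class (-0.46), and Maml2, a Notch coactivator (-0.40), were the other transcription regulators. Rai2, a nuclear protein first found as induced by retinoic acid, read 0.764, 0.741, 0.833 and 0.887 and 0.819, 0.822, 0.902 and 0.847 at 1 h, and 0.871, 1.51, 0.852 and 0.824 and 0.6, 0.684, 0.664 and 0.607 at 4 h. The saline replicate 2 value stood apart for Rai2, and the difference of -0.62 became -0.41 without it.

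Cpeb4 encodes a protein that binds the cytoplasmic polyadenylation element in messages and sets their translation. Its ratio was 1.23, 1.43, 2.07 and 1.71 in saline and 1.81, 2.16, 1.39 and 1.72 in formoterol mice at 1 h, and 1.8, 2.4, 1.5 and 1.32 and 1.2, 1.07, 1.08 and 0.989 at 4 h. The mice of 1 h spread as widely as those of saline 4 h, and the formoterol mice at 4 h were the 4 lowest of the 16. Other RNA-binding or processing genes were Atxn2 (-0.34), Zc3h6 (-0.30) and the spliceosome protein Smu1 (-0.30).

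**Figure D3:**
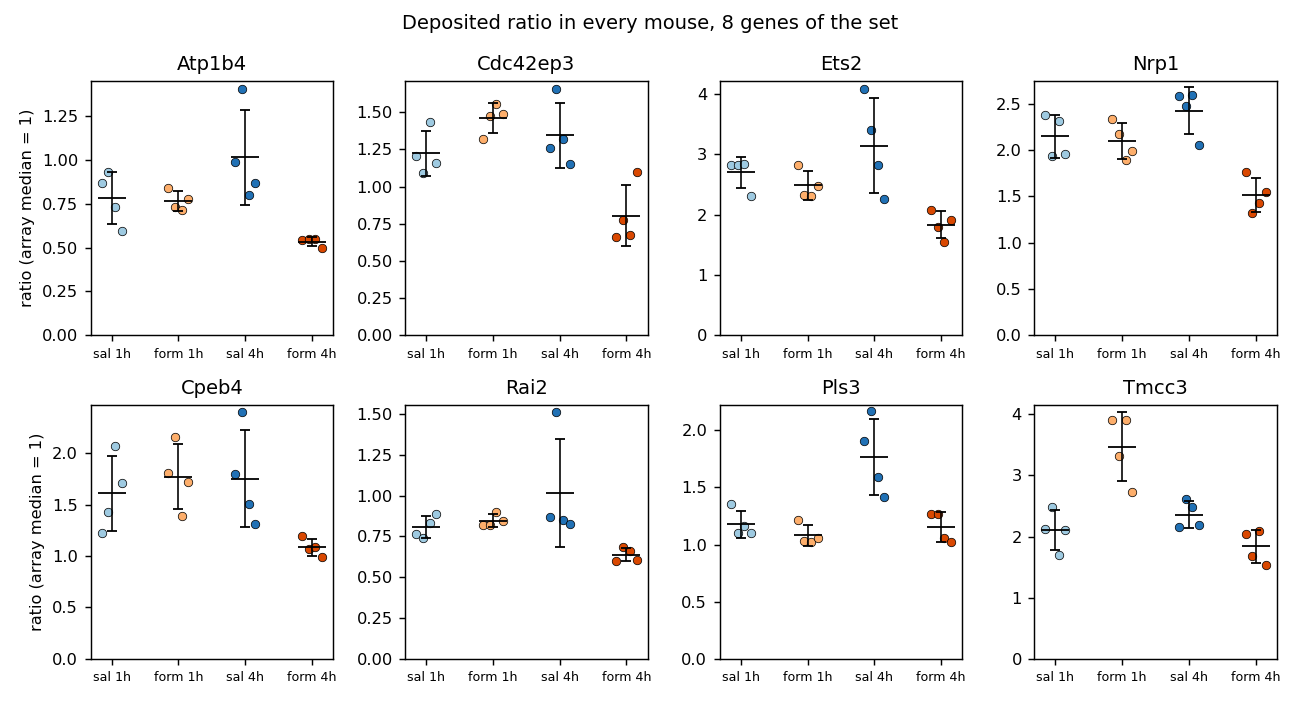
Deposited ratio (array median = 1, linear axis from 0) in every mouse for 7 genes with the lowest differences at 4 h and for Tmcc3, with saline (sal) and formoterol (form) mice at each time; bars give mean ± SD of 4 mice, and for Nrp1 the probe with the lower difference is drawn. In each gene the 4 formoterol mice at 4 h lie under the 4 saline mice at 4 h, and for Tmcc3 the 4 formoterol mice at 1 h lie above the 4 saline mice at 1 h.

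Signalling genes formed another part of the set. Sbk1, a serine/threonine kinase with an SH3-binding region, read 0.921, 1.13, 1.03 and 0.958 and 0.877, 0.931, 1.06 and 1.09 at 1 h, and 1.09, 1.13, 1.07 and 1.12 and 0.757, 0.762, 0.71 and 0.773 at 4 h. It had one of the cleanest separations, with a narrow range in both groups at 4 h. Plcd4, a phospholipase C of the delta class, was 0.89, 0.873, 0.906 and 0.89 and 0.74, 0.915, 0.926 and 0.933 at 1 h, and 1.1, 1.11, 1.09 and 1.19 against 0.782, 0.817, 0.797 and 0.828 at 4 h. Rasgrp3, an exchange factor for Ras and Rap that diacylglycerol recruits, was 1.64, 1.93, 1.89 and 1.75 and 1.71, 1.79, 1.74 and 1.78 at 1 h, and 2.29, 2.05, 2.31 and 2 against 1.41, 1.52, 1.48 and 1.73 at 4 h. In both, the saline mice at 4 h were above every mouse of 1 h and the formoterol mice at 4 h overlapped or lay under the 1 h range.

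Tax1bp3, a small protein made of 1 PDZ domain, was in the set with 2 probes. The first read 1.97, 1.56, 1.28 and 1.24 and 1.72, 1.53, 1.28 and 1.4 at 1 h, and 1.97, 2.2, 1.99 and 1.82 and 1.6, 1.31, 1.32 and 1.48 at 4 h. The second read 2.47, 1.75, 1.49 and 1.52 and 2.03, 1.68, 1.4 and 1.47 at 1 h, and 2.01, 2.27, 2.13 and 1.81 and 1.65, 1.4, 1.57 and 1.56 at 4 h. The differences at 4 h were -0.48 and -0.41, and on both probes replicate 1 was the highest mouse of its group at 1 h. Rgs10, which speeds GTP hydrolysis by inhibitory G protein subunits (at least 1.22-fold lower at 4 h), and Fgf6, a growth factor of skeletal muscle (at least 1.06-fold lower at 4 h, after a difference of 0.33 at 1 h), have only a bound.

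Mest, an imprinted gene expressed from the paternal allele, read 0.949, 0.672, 0.538 and 0.455 and 0.717, 0.624, 0.545 and 0.476 at 1 h, and 0.786, 0.792, 0.653 and 0.853 and 0.496, 0.602, 0.502 and 0.517 at 4 h. The mice of 1 h on slide 2 (replicates 1 and 2) were higher for Mest than those on slide 3 in both treatments. Tpst1, which adds sulfate to tyrosines of secreted proteins in the Golgi, was 0.807, 0.804, 0.734 and 0.675 and 0.731, 0.681, 0.709 and 0.746 at 1 h, and from 0.805 to 1 in saline mice at 4 h against 0.612, 0.689, 0.649 and 0.645 in formoterol mice. Other membrane and Golgi genes were the polysialyltransferase St8sia4 (-0.34), the traffic protein Sft2d2 (-0.43) and Myadm (-0.33).

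Tmcc3, a protein of the endoplasmic reticulum membrane, was the only member with no overlap at 1 h in the other direction. Its ratio was 2.13, 2.49, 1.7 and 2.1 in saline mice and 3.91, 3.31, 3.91 and 2.73 in formoterol mice at 1 h, higher by 0.72 on the log2 scale, and then 2.16, 2.62, 2.48 and 2.18 in saline against 2.04, 1.69, 2.1 and 1.53 in formoterol mice at 4 h, a difference of -0.37. Over all kept probes, formoterol mice lay above saline mice at 1 h with no overlap for 332, or 4.37%, against 1 of the 50 here, and the rule on the 1 h difference bears on that count. No member lay under saline with no overlap at 1 h.

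**Figure D4:**
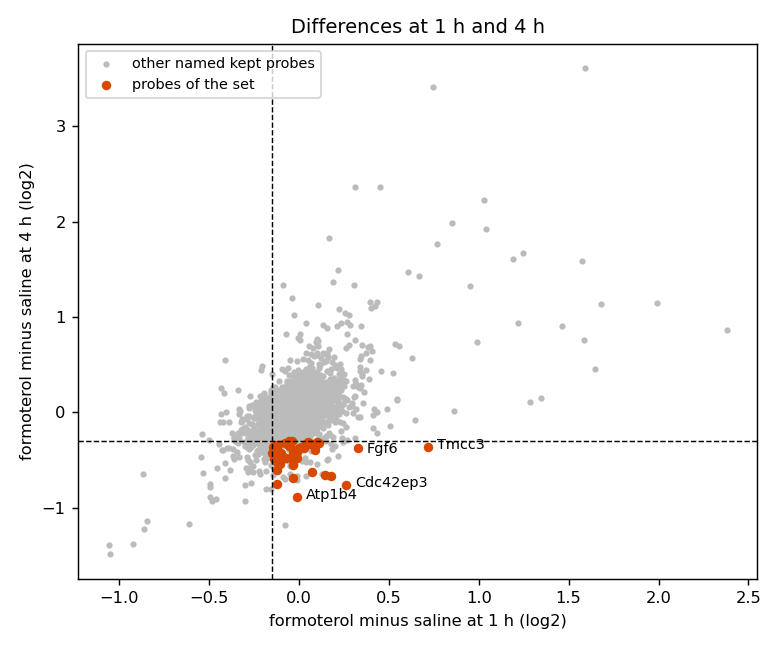
Formoterol minus saline (log2 difference of group means) at 1 h on the horizontal and at 4 h on the vertical axis for the 2584 named kept probes, with the 50 probes of the set in colour and dashed lines at the limits of -0.15 and -0.3. The set fills the lower right field next to the limits, with Tmcc3 (0.72 at 1 h) and Fgf6 (0.33) farthest to the right and Atp1b4 (-0.89) lowest; grey points in the same field overlapped at 4 h or were left out by name.

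Genes of chromatin, replication and transcript elongation had measured differences between -0.46 and -0.32. Among them Arid1a, Bcl7a and Ss18 encode subunits of the BAF remodelling complex. Arid1a was read by 2 kept probes, of which 1 was in the set. The member read 1.36, 1.58, 1.61 and 1.51 and 1.39, 1.46, 1.4 and 1.49 at 1 h, and 1.56, 1.68, 1.46 and 1.34 and 1.29, 1.21, 1.17 and 1.16 at 4 h. The other probe also had no overlap at 4 h, and its difference of -0.28 was just short of the limit, with 0.699, 0.731, 0.598 and 0.622 and 0.674, 0.66, 0.664 and 0.698 at 1 h, and 0.736, 0.738, 0.689 and 0.775 and 0.63, 0.687, 0.63 and 0.488 at 4 h. Bcl7a was at -0.34 and Ss18 at -0.39. Uhrf1, which brings maintenance DNA methylation to the replication fork (at least 1.29-fold lower), Rpa3, the smallest subunit of replication protein A (-0.46), and Ice1, of the little elongation complex (-0.32), were in the same group.

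Ttc3, a ubiquitin ligase, was read by a member probe at 0.719, 0.825, 0.768 and 0.732 and 0.703, 0.703, 0.739 and 0.778 at 1 h, and 0.896, 1.11, 0.815 and 0.81 and 0.78, 0.669, 0.749 and 0.686 at 4 h. Its other kept probe read 1.81, 2.06, 1.94 and 1.83 and 1.79, 1.66, 1.76 and 1.75 at 1 h, and 1.88, 2.1, 2.12 and 1.85 and 1.73, 1.8, 1.7 and 1.79 at 4 h, a smaller difference of -0.18 with no overlap. Other genes of the ubiquitin system were the conjugating enzyme Ube2q1 (-0.36) and Birc2, a ligase that restrains cell death (-0.31). Ankrd17, an ankyrin repeat protein, was at -0.36.

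The MHC class I genes H2-K1 (-0.38) and H2-T23 (-0.36) were both in the set, and class I genes are alike enough in sequence that a probe may read more than 1 of them. The member probe of H2-T23 read 0.917, 0.972, 0.763 and 0.796 and 0.799, 0.735, 0.795 and 0.784 at 1 h, and 0.934, 0.772, 0.894 and 0.953 and 0.639, 0.724, 0.695 and 0.702 at 4 h. A second kept probe read 0.684, 0.746, 0.757 and 0.757 and 0.728, 0.665, 0.681 and 0.713 at 1 h, and 0.743, 0.582, 0.794 and 0.803 and 0.647, 0.753, 0.71 and 0.705 at 4 h. The groups overlapped on that probe, with a difference of -0.04, so the 2 probes of H2-T23 did not give the same result. Of the 5 member genes read by 2 kept probes, Nrp1 and Tax1bp3 had both in the set, Arid1a and Ttc3 had a second probe with no overlap in the same direction, and H2-T23 did not.

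The matrix genes of the set were Col15a1 (-0.44), a collagen of basement membrane zones, Col6a1 (-0.38), a chain of the microfibrillar collagen of muscle, Col8a1 (-0.31), a short-chain collagen, and Itga11 (at least 1.21-fold lower), a collagen-binding integrin chain. Of the fibroblast and matrix markers, 11 of 26 genes were measured, and 2 of these, Col6a1 and Col15a1, are members. Of the other 9, 5 passed the test lower in formoterol mice at 4 h and 0 higher, by limma over all kept probes with Benjamini-Hochberg adjustment: Col1a2 by -1.23 (adjusted p = 0.0034), Col1a1 by -0.65 (adjusted p = 0.0163), Col6a3 by -0.49 (adjusted p = 0.0175) and Col3a1 by -1.17 (adjusted p = 0.0209) are the 4 of lowest adjusted p. Lower calls were made for 537 of 7596 kept probes at 4 h, 7.07%, and higher calls for 669, 8.81%. This list had a median of -0.36 over the 9 genes at 1 h and -0.34 at 4 h, and 2 of the 9 were called lower at 1 h (Col1a1 and Dcn) where 69 of all kept probes, 0.908%, were. The summed ratio of the 11 genes was 60.1 to 71.7 in saline and 46.9 to 56.5 in formoterol mice at 1 h, and 64.7 to 85.3 and 50.9 to 58.1 at 4 h, with no overlap at either time. Its part in the differences of the members was not tested.

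The other marker lists were read in the same way. The erythroid markers, 3 of 14 measured, had a summed ratio of 11.6 to 38.1 in saline and 47.9 to 82.0 in formoterol mice at 4 h, opposite in direction to the members, and Hba-a1 (1.82, adjusted p = 0.0006 by limma) and Hbb-b2 (0.61, adjusted p = 0.0406) rose; the part of blood content in the differences of the members was not tested. The endothelial markers, 9 of 29 measured, had sums of 11.2 to 13.03 and 11.3 to 12.0 at 4 h and a median difference of 0.03. Emcn, an endothelial sialomucin, was lower (-0.71, adjusted p = 0.0009 by limma) and Eng, a TGF-β coreceptor, was higher (0.42, adjusted p = 0.0223). Emcn met the values of the rule and was left out of the set by name alone, so it is not separate from the pattern that chose the members. The smooth muscle and pericyte markers, 3 of 16 measured, summed to 3.27 to 3.62 in saline and 2.83 to 3.21 in formoterol mice at 4 h, without overlap, and none of the 3 was called. For leukocyte markers, 5 of 21 measured, sums of 3.70 to 5.13 and 4.63 to 5.26 overlapped, and S100a9 was higher (0.76, adjusted p = 0.0077 by limma). The 4 muscle fibre markers had no call and sums of 110 to 132 and 117 to 133. Adipocyte markers (3 of 10) had 1 higher call, Lpl, and the 1 measured marker each of Schwann cells and of satellite cells had none.

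The wider pathways of the members were followed in lists chosen by function, with earlier results of these data known, and with the members themselves left out of every count. Members were chosen as lower at 4 h, so leaving them out can only reduce the counts of lower genes at that time. Shares over all kept probes still include the members, so lower and higher counts are not compared on equal terms. In the list for cAMP and G protein signalling, where Rgs10 is a member, Gnaq, an alpha subunit of the Gq class, was lower (-0.26, adjusted p = 0.0269 by limma) and the phosphodiesterase Pde4d higher (1.92, adjusted p = 1.8e-10) of 9 other genes. Of 7 measured ubiquitin ligases and deubiquitinases Fbxo34 was higher and none lower, and neither of the 2 other Notch genes, Notch4 and Ncstn, was called. Among 14 other chromatin genes Kdm1a was lower (-0.24, adjusted p = 0.0271 by limma) and Brd2 higher (0.31, adjusted p = 0.0164), and of 15 other transcription factors 0 were lower and 5 higher.

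In the list for the dystrophin complex, integrins and cell adhesion, 3 of 12 genes were lower at 4 h by limma and 0 higher: Dag1, which encodes dystroglycan (-0.50, adjusted p = 0.0011), Cdh13 (-0.26, adjusted p = 0.0300) and Sspn, sarcospan (-0.25, adjusted p = 0.0312). Of 19 RNA processing genes 0 were lower and 5 higher, and of 12 genes of calcium handling none was called. Over all lists, with 1 that is not reported singly, 25 of 255 genes that are not members were lower at 4 h (9.80%) and 27 higher (10.6%). Of all kept probes, members included, 7.07% and 8.81% were called. At 1 h 7 were lower and 7 higher (2.75% each), where 0.908% and 1.87% of all kept probes were called.

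The change with time over both treatments was the one comparison of the members that the differences of the rule did not use. It is the mean of the 4 h groups minus the mean of the 1 h groups, which is orthogonal to both differences between formoterol and saline. The detection filter did bear on it, since 7 members were kept only through the saline 4 h arrays. The lack of overlap at 4 h also drew on the spread between mice, so these p-values are somewhat small, and time partly coincides with slide. By limma over all kept probes with Benjamini-Hochberg adjustment, 1 of the 50 probes rose and 3 fell, where 1.94% of all kept probes (147) rose and 1.65% (125) fell. The effects of the members ran from -0.40 to 0.33 with a median of -0.03, next to -0.01 for all kept probes, and 46 were not called. At an unadjusted p under 0.05, 16 members (32%) passed, against 18.1% of all kept probes.

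Rhobtb3, an ATPase that acts at the Golgi, fell by 0.40 (SE 0.06, adjusted p = 0.0010, limma). Its ratio was 0.823, 1.03, 1.05 and 0.95 and 1.01, 1.07, 1.03 and 1 in saline and formoterol mice at 1 h, and 0.878, 0.827, 0.744 and 0.93 and 0.622, 0.697, 0.644 and 0.724 at 4 h. It was lower at 4 h in both treatments, and more so in formoterol mice. Cdc42ep3 (-0.38, SE 0.10, adjusted p = 0.0416) and Tmcc3 (-0.37, SE 0.09, adjusted p = 0.0368) also fell by limma, with formoterol means differing by -0.90 and -0.91 and saline means by 0.13 and 0.17. Pls3 rose by 0.33 (SE 0.08, adjusted p = 0.0351, limma), with saline mice higher by 0.57 and formoterol mice by 0.09.

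With slide as a fixed block, where the time effect rests on slide 2 alone, 0 of the 50 were called by limma, and 10 of all kept probes rose and 2 fell; Rhobtb3 was then at -0.25 (adjusted p = 0.634), Tmcc3 at -0.65 (0.083), Cdc42ep3 at -0.17 (0.912) and Pls3 at 0.04 (0.974). Time and slide thus cannot be told apart for these 4 genes. The call of Rhobtb3 held with any of the 16 mice left out, while that of Cdc42ep3 was lost without 12 of them (it held without the second mouse of saline 1 h or of saline 4 h, without formoterol 1 h replicate 1, and without the fourth formoterol mouse of 4 h), and those of Tmcc3 and Pls3 without 9 each.

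**Figure D5:**
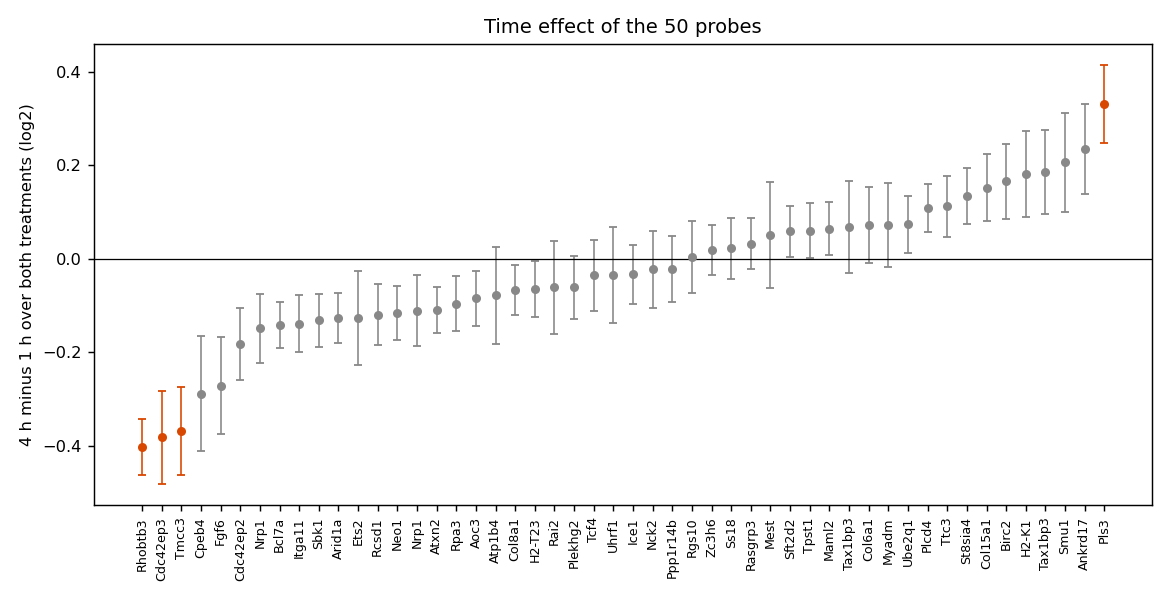
Time effect over both treatments (4 h minus 1 h, log2) for the 50 probes in order of size, points with bars of 1 standard error from limma, coloured where the adjusted p was under 0.05. Rhobtb3, Cdc42ep3 and Tmcc3 lie lowest (-0.40, -0.38 and -0.37), Pls3 highest (0.33), and the other 46 are grey.

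The differences at 4 h were also present within each slide. On slide 1, with 3 mice of each treatment, the median over the 50 probes was -0.42 (from -0.999 to -0.24), and on slide 2, with 1 of each, it was -0.32 (from -0.80 to -0.06), below 0 for all 50, which the lack of overlap fixes. Without saline 4 h replicate 2, the mouse with the highest signal over background, the median was -0.36 and 40 of the 50 still met the rule; the differences of Smu1, Ankrd17, H2-K1, Birc2 and Rai2 became -0.10, -0.18, -0.21, -0.20 and -0.41. Without saline 4 h replicate 4, the mouse with the lowest, 111 probes met the rule, among them 48 of the 50. Just inside the limit on the 4 h difference stood Col8a1 (-0.31), Zc3h6 (-0.30) and Smu1 (-0.30), and just outside Gab3, Zfp579 and Caprin1 (-0.30, -0.30 and -0.29). For the limit on the 1 h difference, Sft2d2 (-0.15), H2-T23 (-0.14) and Ppp1r14b (-0.14) stood inside and Serpinh1 (-0.15), Ccng1 (-0.15) and Ebf1 (-0.18) outside.

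The 48 genes lay on 17 chromosomes, with at most 5 on any, chromosomes 1 and 17, the latter with H2-K1 and H2-T23 of the major histocompatibility complex. On the X chromosome were 3 (Atp1b4, Rai2 and Pls3), which held 67 of the 2386 kept named genes.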

How the data were processed

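RNA of 16 tibialis anterior muscles was hybridised to Illumina Sentrix Mouse-6 arrays, 1 per mouse. The authors scanned them on an Illumina BeadStation, summarised beads per probe in BeadStudio 1.5.1.3 and did not pool replicates, and the deposited files hold a raw intensity, a detection score and a ratio for each probe and array. The deposited ratio is the intensity over the array median of the kept probes, taken by the authors in GeneSpring GX. Probe IDs carry a padded number that was looked up as an NCBI gene number: 2584 of 2764 padded kept probes were in the RefSeq table (GRCm38.p6), and the reading of the ID as a gene number is an inference.

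Members were found on log2 of the deposited ratio, with no pseudocount. Members and gene lists were chosen with earlier results of these data known. For tests, intensities were scaled to equal medians of the kept probes, set to a floor at percentile 1 (257.5) and taken to log2, and the 4 groups entered a linear model in limma 3.58.1 (R 4.3.3, 12 residual degrees of freedom), with Benjamini-Hochberg adjustment over 7596 probes and a threshold of 0.05. The methods describe a Welch test, which was an alternative. A gene with several kept probes entered the lists by its brightest. The script was tested on simulated data. Replicates are separate mice; the number of arrays limits the precision. Every member is named; values in each mouse are given for the 16 probes with the lowest 4 h difference (for Tpst1 in saline mice at 4 h as a range), for genes with a kept second probe and for genes called for the time effect, and of each list at most 4 called genes are named, lowest adjusted p first. Tables and figures used Python, numpy and pandas. The result of 1 gene list is not reported here.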

Additional observations from a re-analysis of the deposited data

Results flagged for a closer look

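A mouse stood apart from the other 3 of its group, with a gap to the nearest above Dixon's critical share of the group's range, in 20 of 204 groups of 4 values (50 probes and their mean, in 4 groups each). Chance flags about 1 in 20 such groups, and the no-overlap condition at 4 h bears on which values are seen. In the saline mice at 4 h, replicate 2 was the highest for Rai2 (1.51), H2-K1 (1.39), Ube2q1 (1.16), Aoc3 (1.13), Birc2 (0.894) and Smu1 (1.22), and this was also the array with the highest signal over background (3.74). Replicate 4 of the same group, the array with the lowest (2.33), stood apart for Tcf4 (4.59, the lowest), Plcd4 (1.19, the highest) and Plekhg2 (0.793, the highest). In the saline mice at 1 h, replicate 1 was the highest for Nck2 (1.65), Rpa3 (1.01), Uhrf1 (0.965) and Myadm (2.84), and replicate 4 the lowest for Ets2 (2.31). In formoterol mice at 1 h, replicate 1 was the lowest for Plcd4 (0.74) and replicate 4 the highest for Rgs10 (0.706). In formoterol mice at 4 h the values that stood apart were those of Atp1b4 (replicate 4, 0.499), Nrp1 (replicate 1, 2.63), H2-K1 (replicate 4, 0.715) and Aoc3 (replicate 2, 0.774).

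Tmcc3 moved in opposite directions at the 2 times: every formoterol mouse was above every saline mouse at 1 h (difference 0.72, log2) and under every saline mouse at 4 h (-0.37). Because the rule chose on both differences, the change between the times was not tested.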

How the results depend on the processing

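The median 4 h difference of the members stayed between -0.43 and -0.36 with any mouse left out, was -0.42 after quantile normalization and -0.54 after normexp with quantile normalization, and was -0.32 on slide 2; with both arrays of extreme signal over background left out, an alternative chosen after seeing the data, it was -0.38. The median 1 h difference ran from -0.045 to 0.026 with a mouse left out. The rule found 87 probes after normexp with quantile normalization (39 of the 50 shared), 11 at a 4 h limit of -0.5, 30 at a 1 h limit of -0.05, and 44 to 111 with a mouse left out. Of 1050 single 4 h differences under the alternatives, 1008 moved by less than the spread between mice, 42 by more (23 under normexp, 19 on slide 2 alone) and 0 changed sign. Many of these could not move, because leaving out a 1 h mouse does not alter a 4 h difference. With a 4 h mouse left out, or on a single slide, the lack of overlap fixes the sign. Only the other normalizations could have changed it.

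For the time effect, 147 probes were higher and 125 lower at 4 h, and 4 of the members were called (3 with the replicate block). These counts were 32, 13 and 1 with no filter on dim probes, 10, 2 and 0 with slide as a fixed block, 72, 43 and 1 with slide as a random block, and 61, 31 and 1 at an adjusted p under 0.01. With a mouse left out they ran from 93 to 237, from 58 to 247 and from 1 to 4, highest over all probes without saline 4 h replicate 4. Of the list genes, 25 were lower and 27 higher at 4 h, and 7 and 7 at 1 h. With no filter these were 6, 13, 2 and 4, by the methods' Welch test 7, 9, 0 and 1, and at an adjusted p under 0.01 12, 17, 3 and 5; with a mouse left out they ran from 15 to 37, 23 to 30, 4 to 10 and 5 to 10, and the count lower at 4 h was 16 when saline 4 h replicate 1 was left out and 15 when it was formoterol 4 h replicate 3. The cause of these shifts was not tested, apart from the larger number of probes adjusted over when no filter was used.

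Replicate numbers did not pair the mice: deviations of same-numbered saline and formoterol mice correlated between -0.06 and 0.30 at 1 h and between -0.25 and 0.27 at 4 h. With the replicate block 151 probes were higher and 117 lower for time, and 27 and 28 list genes were called at 4 h. Dim signal limits the set: 11 members had a full detection score in no formoterol mouse at 4 h.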
